A study of Mus musculus with 8 samples.

Results

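Telomere-proximal autosomal regions are here the H3K27me3 and H3K4me3 peaks that start within the last 5 Mb of a chromosome. The distance was counted back, on each of the 19 autosomes, from the largest end that any of the 8 peak lists gives for that chromosome. For each mark, peaks from its 4 libraries became 1 region wherever they had at least 1 bp in common. The windows held 4661 of the 79319 autosomal regions, namely 1834 of 26244 for H3K27me3 (6.99%) and 2827 of 53075 for H3K4me3 (5.33%). Together the windows span 95 Mb, which is 3.94% of the autosomal length between the first listed start and the last listed end of each chromosome. The rest of the autosomes means everything before the windows.

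The cells were germline stem cells, the form in which mouse spermatogonial stem cells are grown in culture. All came from wild-type testes of Green mice, a C57BL/6 line named Tg14(act-EGFP)OsbY01 that carries a transgene for enhanced green fluorescent protein, on a DBA/2 background, and all were grown with FGF2, GDNF and fetal bovine serum. The 60M cells had been in culture for about 60 months and the 5M cells for about 5 months. Each mark was profiled by chromatin immunoprecipitation and sequencing in 2 libraries of each age, and the comparison asks what long culture changes in stem cells of the testis. The labels do not say that the libraries of an age came from separate cultures, so p-values measure only the spread between these libraries, which may be technical. They also do not say which libraries were made with micrococcal nuclease beside sonication.

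H3K4me3 marks the nucleosomes around the start sites of active and poised genes. H3K27me3 is written by Polycomb repressive complex 2 and covers silenced developmental genes, often as wide domains, and where it lies together with H3K4me3 the promoter is called bivalent. Mouse autosomes are acrocentric, with the centromere close to 1 end, so the largest coordinate of each lies at the distal end, next to the telomere of the long arm. Telomere repeats themselves cannot be seen in such lists.

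The lists held 12002 to 14940 peaks for H3K27me3 and 41637 to 47415 for H3K4me3, with borders in steps of 1000 bp. They carry no read totals, so depth is unknown. Positions are given as listed, and they follow mm9 lengths although the notes name mm10. On 9 autosomes a peak ends beyond the mm10 chromosome, and on 1 autosome a peak overhangs the mm9 end, by 687 bp. The largest listed end lay within 100 kb of the mm9 end on 16 of 19 autosomes, and at most 242 kb from it. Without an annotation for mm9, regions carry no gene names or sequences here, and the cell type label was not checked against marker genes.

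Both marks were denser in the last 5 Mb than in the rest of the autosomes, in every library. H3K27me3 peaks lay at 11.4 and 10.2 per Mb in the windows of the 60M libraries and at 9.60 and 11.4 per Mb in those of the 5M libraries. In the rest of the autosomes the same lists gave 5.91 and 5.15 per Mb at 60M and 4.72 and 5.76 per Mb at 5M. The lowest window value of H3K27me3 was thus well above the highest value of the rest.

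H3K4me3 peaks lay at 24.9 and 23.9 per Mb in the windows at 60M and at 24.7 and 25.2 per Mb at 5M. The rest of the autosomes had 17.3 and 16.5 per Mb at 60M and 18.3 and 18.9 per Mb at 5M. Again no library's window fell into the range of the rest. The density ratio of window to rest was 1.98 ± 0.0403 for H3K27me3 and 1.39 ± 0.0579 for H3K4me3 (SD, n = 4 libraries each).

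**Figure D1:**
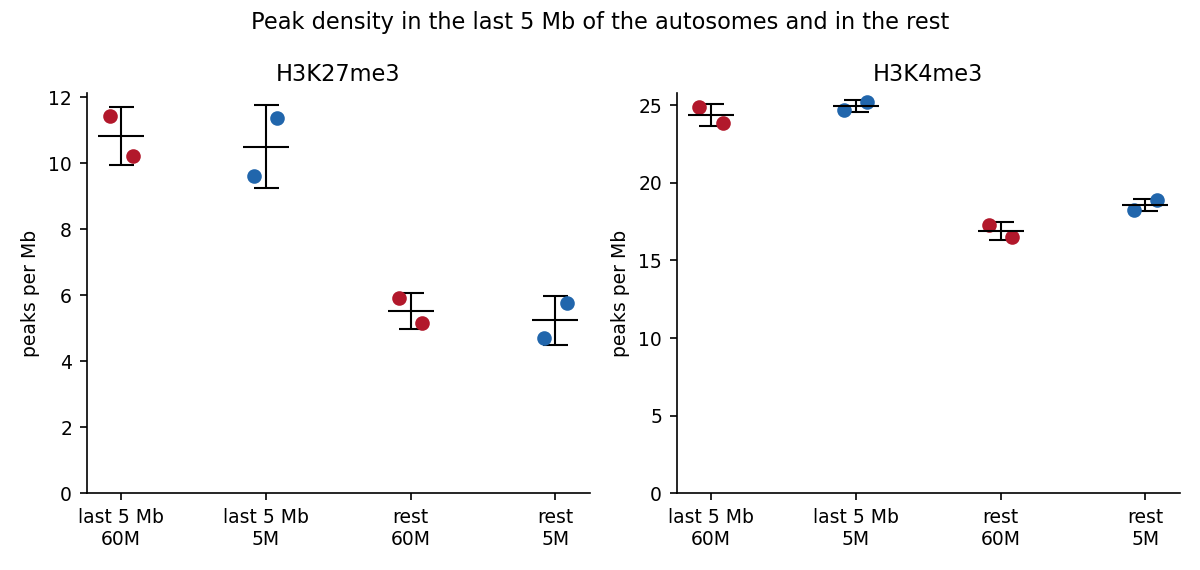
Peaks per Mb (vertical axis) in the last 5 Mb of the 19 autosomes and in the rest, for H3K27me3 (left) and H3K4me3 (right). Each point is 1 library, bars give the mean and SD of the 2 libraries of an age, and for both marks all 4 window values lie above all 4 values of the rest.

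Over the 8 libraries the mean log2 ratio of window to rest was 0.73, a 1.66-fold higher density, with an exact two-sided sign-flip permutation p of 0.00781, the smallest that 8 libraries allow, and 0.0469 after Benjamini-Hochberg adjustment over 12 tests. The ratio was positive in 8 of 8 libraries. H3K27me3 exceeded H3K4me3 in this ratio by 0.51 on the log2 scale, and the ratios of the marks did not overlap. The exact permutation p of that difference was 0.0286, the smallest for 4 libraries against 4, and 0.0857 after adjustment, which misses 0.05. With the last 2 Mb as the window the mean log2 ratio was 0.26, against 0.73 with 5 Mb.

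The opposite end of the chromosomes did not have this surplus. In the first 5 Mb after the first listed peak, H3K27me3 had a density ratio to the rest of 0.785 ± 0.0544 and H3K4me3 one of 0.859 ± 0.00591 (SD, n = 4 each). The telomere-proximal windows were therefore 2.54 ± 0.167 times as dense as the centromere-proximal ones for H3K27me3 and 1.62 ± 0.0600 times for H3K4me3. In covered bases, H3K27me3 peaks filled 1.97 to 2.64% of the last 5 Mb, against 1.01 to 1.38% of the rest. H3K4me3 peaks filled 5.24 to 5.55% of the last 5 Mb, against 3.78 to 4.02% of the rest.

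Telomere-proximal H3K27me3 peaks were also stronger within their lists. Strength is here the percentile of a peak's maximum immunoprecipitation signal, a value the authors gave each peak, among all peaks of the same list. The median H3K27me3 peak of the windows stood at percentile 63.2 and 61.9 at 60M and at 59.6 and 62.3 at 5M, against 49.0 and 48.9 at 60M and 50.7 and 48.6 at 5M in the rest. The groups did not overlap, and the window exceeded the rest by 12.5 ± 2.41 percentile points (SD, n = 4).

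For H3K4me3 the difference in strength was small. Its window medians were at percentile 50.8 and 51.8 at 60M and at 53.4 and 54.6 at 5M, against 50.2 and 50.3 at 60M and 49.9 and 49.99 at 5M in the rest. The excess was 1.02 ± 0.612 points at 60M and 4.03 ± 0.759 points at 5M (SD, n = 2 each). All 4 libraries had the window above the rest, and the ages did not overlap.

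Over the 8 libraries the mean difference in strength was 7.49 points, positive in 8 of 8 (exact sign-flip permutation p = 0.00781, adjusted 0.0469). The difference between the marks was 9.93 points (exact permutation p = 0.0286, adjusted 0.0857). It had the opposite sign in the last 2 Mb, at -3.92 points, and among peaks at the ceiling described next, at -1.70 points (unadjusted exact permutation p = 0.0286 each). The call over 8 libraries depended on how peaks were pooled and chosen, among other ways by keeping only peaks whose −log10 p against the control stands at the highest value the lists give, their ceiling. It was 3.99 points (exact permutation p = 0.0859) as a median over chromosomes, 0.742 points (exact permutation p = 0.102) for the ceiling peaks, and 6.58 points (exact permutation p = 0.0781) in the last 10 Mb.

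The surplus of strong H3K27me3 peaks showed in the upper tail too, with chromosome 15 included. The chromosome 15 window held 119 to 149 of the 912 to 1087 H3K27me3 window peaks of a library, at median percentiles of 83.3 to 89.2. Shares without that chromosome were not computed, and its part in the upper tail was not tested. Of the window peaks, 15.0 and 14.6% at 60M and 13.6 and 15.8% at 5M were above percentile 90 of their list, against 9.68 and 9.81% at 60M and 9.90 and 9.78% at 5M in the rest. The highest H3K27me3 signal inside the windows was 139 to 190 in the 4 lists, against 286 to 634 in the rest. The rest holds many times more peaks, so this single highest value says nothing on the share of strong peaks. For H3K4me3, 9.86 to 10.7% of the window peaks and 10.2 to 10.3% of the other peaks were above percentile 90.

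Peak width did not differ in 1 direction. The mean width of H3K27me3 peaks in the windows was 1.97 kb in either 60M library, with 2.05 and 2.32 kb for 5M. In the rest it was 1.98 and 1.95 kb for 60M and 2.17 and 2.39 kb for 5M. H3K4me3 window peaks had a mean width of 2.23 and 2.28 kb in the 60M libraries and of 2.12 and 2.18 kb in the 5M libraries, and outside the windows of 2.25 and 2.29 kb for 60M and 2.10 and 2.13 kb for 5M. The difference farthest from 0, window minus rest, was -0.118 kb, in H3K27me3 5M library 1. The mean difference over 8 libraries was -0.0165 kb (exact sign-flip permutation p = 0.438), and 3 of 8 libraries had wider peaks in the windows. With peaks at the ceiling of the p-value it was -0.749 kb (exact permutation p = 0.00781).

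The last 5 Mb were not uniform. In the outermost 1 Mb, H3K27me3 had 1.097 ± 0.0656 times and H3K4me3 0.954 ± 0.0441 times the density of the rest (SD, n = 4 each), so the extreme ends held about as many peaks as the rest. Density then climbed inward. H3K27me3 reached a ratio of 2.71 ± 0.111 between 3 and 4 Mb, and H3K4me3 one of 1.65 ± 0.0556 between 4 and 5 Mb.

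Strength ran the other way for H3K4me3. Its peaks in the outermost 1 Mb had a mean median percentile of 68.2, with 59.4 in the next 1 Mb and 46.4 between 3 and 4 Mb. H3K4me3 peaks were thus fewest at the extreme ends and strongest there. H3K27me3 peaks had a percentile of 52.1 in the outermost 1 Mb and of 60.7 to 64.8 in the next 4 steps.

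The window has no natural border at 5 Mb. In the last 0.5 Mb inside it, H3K27me3 peaks lay at 11.5 to 15.7 per Mb, against 9.79 to 11.8 per Mb in the first 0.5 Mb outside. For H3K4me3 the densities were 27.4 to 29.3 per Mb inside and 23.2 to 25.9 per Mb outside. Between 7 and 8 Mb from the end the ratios to the rest were still 2.49 ± 0.181 for H3K27me3 and 1.77 ± 0.0516 for H3K4me3 (SD, n = 4 each). H3K27me3 stood at 1.83 ± 0.156 between 13 and 14 Mb. H3K4me3 stood at 1.75 ± 0.0273 between 14 and 15 Mb, above its highest step inside the window (1.65). The H3K4me3 surplus was thus not particular to the last 5 Mb. Between 18 and 19 Mb H3K27me3 was at 1.01 ± 0.122 and H3K4me3 at 1.18 ± 0.0199.

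**Figure D2:**
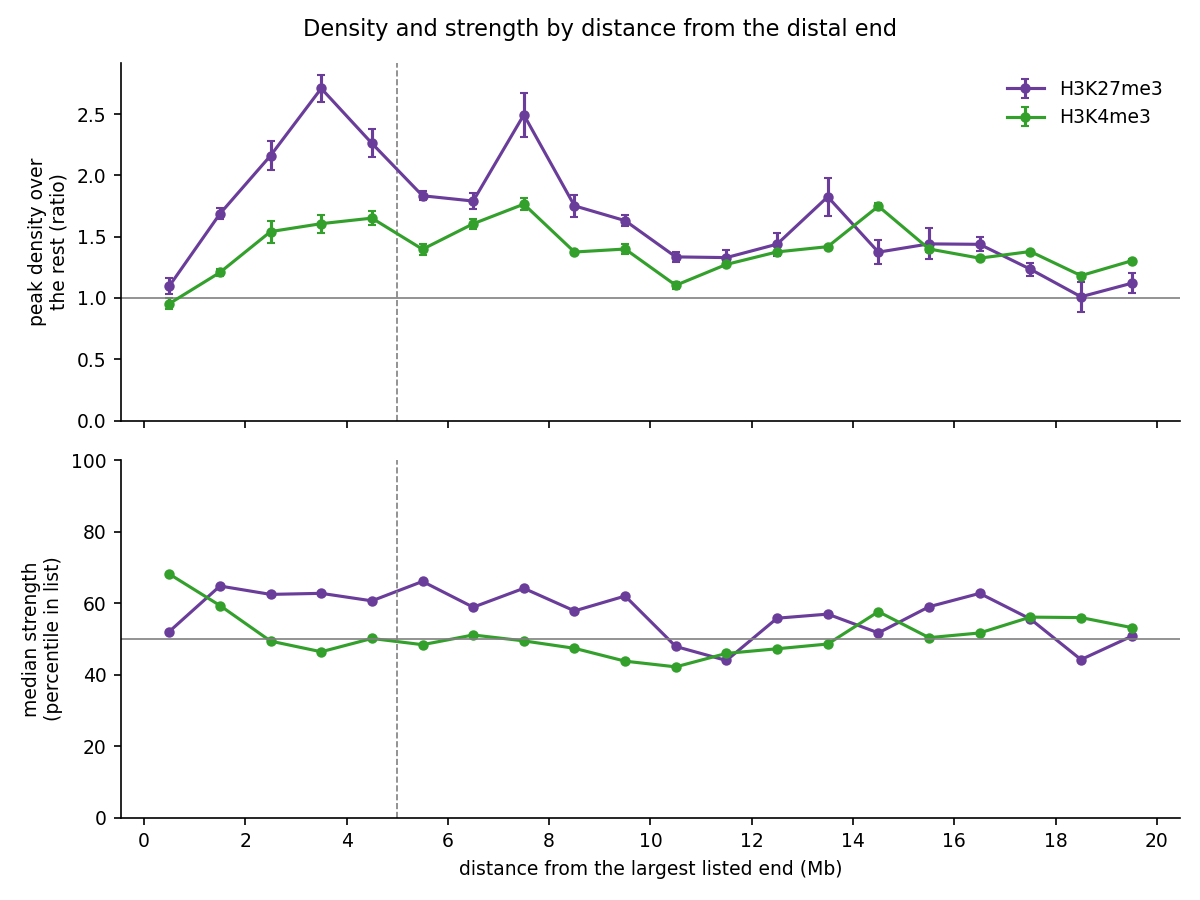
Peak density over that of the rest of the autosomes (top, mean and SD of 4 libraries) and median strength as a percentile within the list (bottom, mean of 4 libraries) in steps of 1 Mb from the largest listed end, for H3K27me3 and H3K4me3. The dashed line marks 5 Mb. The lowest densities inside the window are those of the outermost step, where H3K4me3 strength is highest (percentile 68.2).

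The outermost peak of a chromosome was H3K27me3 on 10 autosomes and H3K4me3 on 9. The outermost H3K4me3 region was found in all 4 libraries on 16 chromosomes, while the outermost H3K27me3 region was found in a single library on 15. Of regions present in all 4 libraries, the outermost H3K4me3 region lay a median of 3 kb from the largest listed end, and 479 kb at most. That end is itself set by the last peak of either mark. The H3K4me3 distance is therefore 0 by rule on chromosomes 2, 3, 6, 10, 11, 12, 17 and 18. The outermost H3K27me3 region in all 4 libraries lay a median of 782 kb from the largest listed end. It was farthest on chromosomes 1 (2626 kb), 3 (2271 kb) and 8 (1936 kb). The windows hold 1884 such H3K4me3 regions and 423 such H3K27me3 regions, and the part of that number in the distances was not tested. On chromosome 19 the H3K27me3 region was the nearer, at 2 kb, against 33 kb for H3K4me3. On chromosomes 14 and 15 an H3K27me3 region in all 4 libraries was the last of either mark, at 125073000 to 125078999 on chromosome 14 and 103369000 to 103372999 on chromosome 15.

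The surplus was shared by most chromosomes but not by all. The H3K27me3 window was denser than the rest of its chromosome in all 4 libraries on 14 of 19 autosomes and sparser in all 4 on 4. For H3K4me3 it was denser in all 4 on 14 and sparser in all 4 on 5. The 3 densest H3K27me3 windows were those of chromosome 15 (26.4 ± 2.49 peaks per Mb), chromosome 4 (15.6 ± 2.13) and chromosome 10 (15.4 ± 1.81; SD, n = 4 each). Those of chromosomes 4 and 10 did not differ beyond the spread between libraries.

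The 3 sparsest H3K27me3 windows were those of chromosome 3 (1.65 ± 0.473 peaks per Mb), chromosome 18 (1.85 ± 0.661) and chromosome 17 (2.75 ± 1.46), which overlapped one another. The 3 densest H3K4me3 windows were those of chromosome 5 (51.3 ± 2.86), chromosome 15 (51.3 ± 0.5) and chromosome 4 (40.1 ± 2.65). The 3 sparsest were those of chromosome 18 (4.70 ± 1.00), chromosome 3 (5.30 ± 0.959) and chromosome 17 (7.70 ± 0.416). The same 3 chromosomes were thus sparsest for both marks, and the densest H3K27me3 window had 16 times the density of the sparsest.

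Windows rich in 1 mark tended to be rich in the other. Over the 19 windows the densities of both marks had a Spearman rho of 0.814 and a Pearson r of 0.863. This describes 19 windows that share libraries, sequence composition and gene content, and it is not a test. The part that H3K4me3 density plays in the H3K27me3 surplus was not tested.

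**Figure D3:**
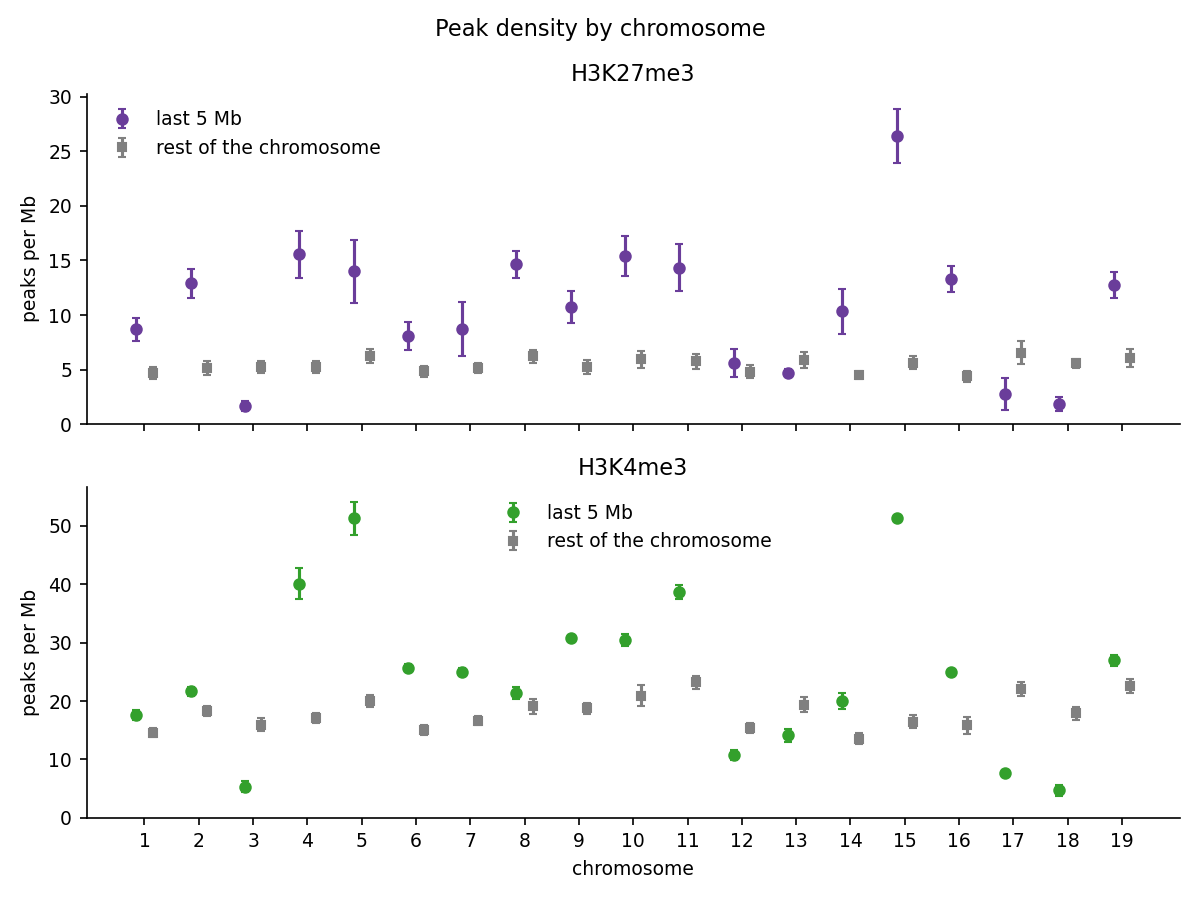
Peaks per Mb in the last 5 Mb of each autosome (coloured points) and in the rest of the same chromosome (grey squares), as mean and SD of 4 libraries, for H3K27me3 (top) and H3K4me3 (bottom). Chromosome 15 stands highest for H3K27me3 at 26.4 per Mb, and the windows of chromosomes 3, 17 and 18 lie under the rest of their chromosome for both marks.

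Chromosome 15 stood apart for H3K27me3, a detail pursued after its values were seen. Its last 5 Mb, from 98372999 to 103372999, held 149 and 130 H3K27me3 peaks at 60M and 119 and 130 at 5M. In steps of 5 Mb from each distal end, this window had the most H3K27me3 peaks of all 471 or 472 steps that held any, in each of the 4 libraries. The median strength percentile of its H3K27me3 peaks was 86.7 ± 2.60, against 45.9 ± 1.798 in the rest of chromosome 15 (SD, n = 4 each). Among steps with at least 20 peaks it ranked from 2 to 4 in strength.

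The strong H3K27me3 peaks of chromosome 15 were in blocks. Between 0.5 and 1 Mb from the end the median percentile was 95.7 to 99.2 over the 4 libraries, and between 1.5 and 2 Mb it was 91.1 to 94.2. Between them, from 1 to 1.5 Mb, the lists gave 0 to 6 H3K27me3 peaks at percentiles of 17.6 to 39.998, but 29 to 33 H3K4me3 peaks at percentiles of 76.3 to 78.3. The stretch poorest in H3K27me3 was therefore the one where H3K4me3 was strongest. Of the 196 H3K27me3 regions of this window, 34.2% were in all 4 libraries, against 21.7% of the 1638 regions of the other 18 windows together. Single windows came near or above it, with 33.1% on chromosome 11 and 40% (6 of 15) on chromosome 18.

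The surplus of H3K27me3 did not rest on chromosome 15 alone. Without it the density ratio of window to rest was 1.82 ± 0.0441 for H3K27me3 and 1.30 ± 0.0515 for H3K4me3 (SD, n = 4 each). The strength difference without it was 9.84 ± 2.13 points for H3K27me3 and 0.900 ± 1.81 points for H3K4me3. In this form the H3K4me3 windows were weaker than the rest in both 60M libraries, at -0.661 and -0.654 points, and stronger in both 5M libraries, at 2.17 and 2.75 points.

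By chromosome, H3K27me3 strength was above that of the rest of the chromosome in all 4 libraries on 12 autosomes and under it in all 4 on 3, with 4 mixed. For H3K4me3 it was above in all 4 on 6 autosomes and under in all 4 on 8, with 5 mixed. The lowest H3K4me3 windows were those of chromosome 17, at percentile 20.1 ± 4.77 against 52.7 ± 1.72 in the rest, and chromosome 18, at 22.2 ± 7.17 against 44.3 ± 0.908 (SD, n = 4 each). Both are also among the sparsest windows.

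**Figure D4:**
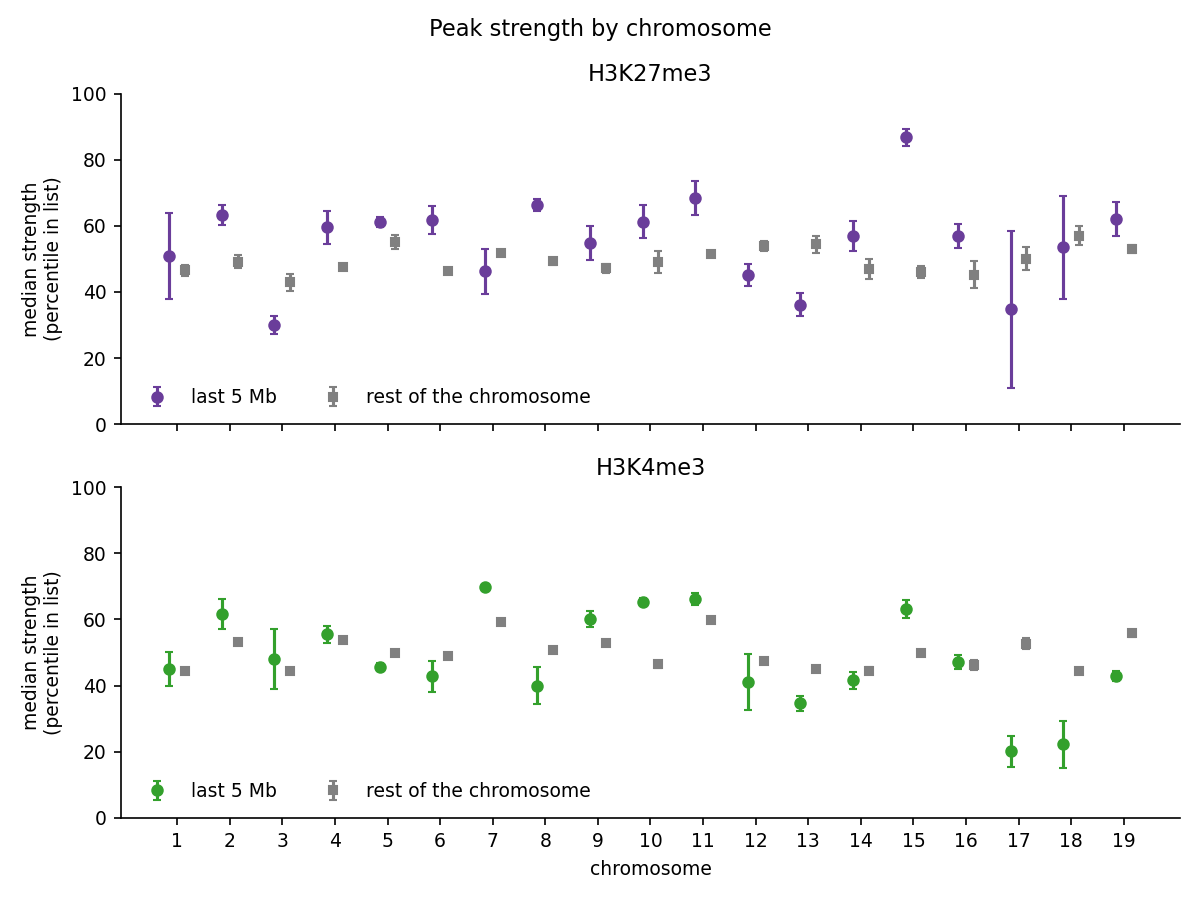
Median peak strength, as the percentile of signal within the list, in the last 5 Mb of each autosome (coloured points) and in the rest of the same chromosome (grey squares), as mean and SD of 4 libraries, for H3K27me3 (top) and H3K4me3 (bottom). The H3K27me3 window of chromosome 15 is highest at percentile 86.7, and the H3K4me3 windows of chromosomes 17 and 18 are lowest.

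The strongest telomere-proximal H3K27me3 regions were wide and lay on H3K4me3. The 5 strongest of those in all 4 libraries were 9 to 18 kb wide, on chromosomes 2, 5, 14, 15 and 16, and every one of them was overlapped by an H3K4me3 peak in all 4 H3K4me3 libraries. Of all 423 window regions in all 4 libraries, 47.8% overlapped an H3K4me3 peak in at least 1 library. The part of width in this overlap was not tested. The strongest, chromosome 5 148118000 to 148130999, had a maximum signal of 144 and 136 at 60M and 155 and 190 at 5M. The widest by covered bases, chromosome 15 98618000 to 98635999, was covered over 17 and 16 kb in 60M cells and over 17 and 18 kb in 5M cells. The chromosome 15 region was thus about as wide at either age. A region on chromosome 16 at 94756000 to 94773999 has the same span of 18 kb but fewer covered bases.

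One wide H3K27me3 region had no H3K4me3 peak in any library. It lay on chromosome 9 at 121692000 to 121705999 and was covered over 12 and 11 kb in 60M cells and over 12 kb in each 5M library. The 5 strongest H3K4me3 regions were narrow, 3 to 4 kb wide, on chromosomes 1, 2, 4, 10 and 19, and none overlapped an H3K27me3 peak in any library. The strongest of them, chromosome 4 151368000 to 151371999, had a signal of 835 and 753 at 60M and 858 and 801 at 5M and covered 4 kb in each library. Over all 2827 H3K4me3 regions of the windows, only 7.004 to 11.6% were overlapped in an H3K27me3 library. The lack of overlap in 5 regions is near that share and does not set them apart. The widest H3K4me3 region, chromosome 11 120091000 to 120102999, covered 11 kb in each 60M library and 11 and 12 kb in the 5M libraries.

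In each library a larger share of H3K27me3 peaks lay away from H3K4me3 in the windows than in the rest. Peaks off any H3K4me3 peak lay at 9.28 and 7.96 per Mb at 60M and at 7.2 and 8 per Mb at 5M, against 4.43 and 3.73 per Mb at 60M and 3.11 and 3.62 per Mb at 5M in the rest. Peaks on H3K4me3 lay at 2.16 and 2.25 per Mb at 60M and at 2.40 and 3.38 per Mb at 5M, against 1.48 and 1.42 per Mb at 60M and 1.61 and 2.14 per Mb at 5M in the rest. The density ratio of window to rest was 2.19 ± 0.0962 for peaks off H3K4me3 and 1.53 ± 0.0635 for peaks on it (SD, n = 4 each).

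The log2 ratio of peaks off H3K4me3 exceeded that of peaks on it by 0.52 ± 0.0862, in 4 of 4 libraries (exact sign-flip permutation p = 0.125, the smallest that 4 libraries allow). Peaks off H3K4me3 were also stronger in the windows, by 15.5 ± 1.52 percentile points, and peaks on it by 8.91 ± 1.51 points. Among the 423 H3K27me3 regions in all 4 libraries, 202 (47.8%) lay on H3K4me3, against 64.0% of the 4495 such regions of the rest. This split was added after the data were examined.

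The H3K27me3 density ratio of window to rest was 1.96 ± 0.0328 at 60M and 2.01 ± 0.0416 at 5M (SD, n = 2 each), and the ages overlapped. The log2 difference was -0.03 (exact permutation p = 0.667, where 2 libraries against 2 allow no p under 0.333). The ages did not overlap, with 60M lower, as a median over chromosomes (-0.10), with the first 5 Mb left out of the rest (-0.04) and without chromosome 15 (-0.05; exact permutation p = 0.333 each). At equal list lengths the sign was the opposite, with 60M higher, so no direction can be called. For H3K4me3 the ratio was 1.44 ± 0.00736 at 60M and 1.34 ± 0.00992 at 5M, and the ages did not overlap. The log2 difference was 0.10 (exact permutation p = 0.333, the smallest possible), so no call can be made.

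Within the windows, H3K4me3 density was nearly the same at both ages, at 24.4 ± 0.722 per Mb at 60M and 24.9 ± 0.372 per Mb at 5M (SD, n = 2 each). In the rest it was lower at 60M in both libraries, as given above. The ages differed in list length too, with 42668 ± 1458 H3K4me3 peaks at 60M and 46674 ± 1048 at 5M. At equal list lengths the log2 difference of the ratios was 0.08, and the part of list length in the difference was otherwise not tested.

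Region by region, the windows had a different balance between the ages for H3K4me3. A region counted as listed at 1 age only when both libraries of that age and neither of the other had a peak in it. Of the 2827 H3K4me3 regions, 166 (5.87%, exact binomial 95% interval 5.03 to 6.80%) were listed at 60M only, against 4.4% of the 50248 regions of the rest. A further 223 (7.89%, interval 6.92 to 8.94%) were listed at 5M only, against 10.3% in the rest. The intervals cover counting error only, and 2 libraries against 2 allow no test of a single region.

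There were thus 0.744 H3K4me3 regions listed at 60M only for each 1 listed at 5M only in the windows, against 0.426 in the rest. Between single libraries, the same ratio ran from 0.722 to 1.11 in the windows and from 0.427 to 0.707 in the rest, over the 4 pairs of a 60M with a 5M library. It was higher in the windows in each pair, but the pairs share libraries and are not independent. At equal list lengths 8.31% of the window regions were listed at 60M only, against 6.83% in the rest, and 6.45% at 5M only, against 8.004% in the rest.

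The surplus of 60M-only H3K4me3 regions was not at the extreme ends. In the last 2 Mb 4.35% of regions were listed at 60M only, against 4.48% of the rest. By distance, the share at 60M only was 3.51% in the outermost 1 Mb, 7.59% between 2 and 3 Mb and 7.31% between 3 and 4 Mb. The share of H3K4me3 regions in all 4 libraries was 75.4% in the outermost 1 Mb and 62.2 to 69.2% in the other steps. With only peaks at the ceiling of the p-value, the share at 5M only was 5.96% in the windows, against 5.94% in the rest.

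For H3K27me3 the shares listed at 1 age only were close to those of the rest in the lists as deposited. Of its 1834 regions 80 (4.36%, interval 3.47 to 5.40%) were listed at 60M only, against 4.44% in the rest. There were 105 (5.73%, interval 4.71 to 6.89%) at 5M only, against 6.03%. At equal list lengths the shares were 4.90% at 60M only, against 4.66% in the rest, and 6.09% at 5M only, against 7.26% in the rest. The difference between windows and rest was not tested. More of the window regions were in all 4 libraries, 423 or 23.1%, against 18.4% in the rest, and fewer in a single library, 897 or 48.9%, against 55.1%. Leaving out single libraries gave 103 to 369 regions at 60M only and 150 to 380 at 5M only, so these H3K27me3 counts rest on which library is used.

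**Figure D5:**
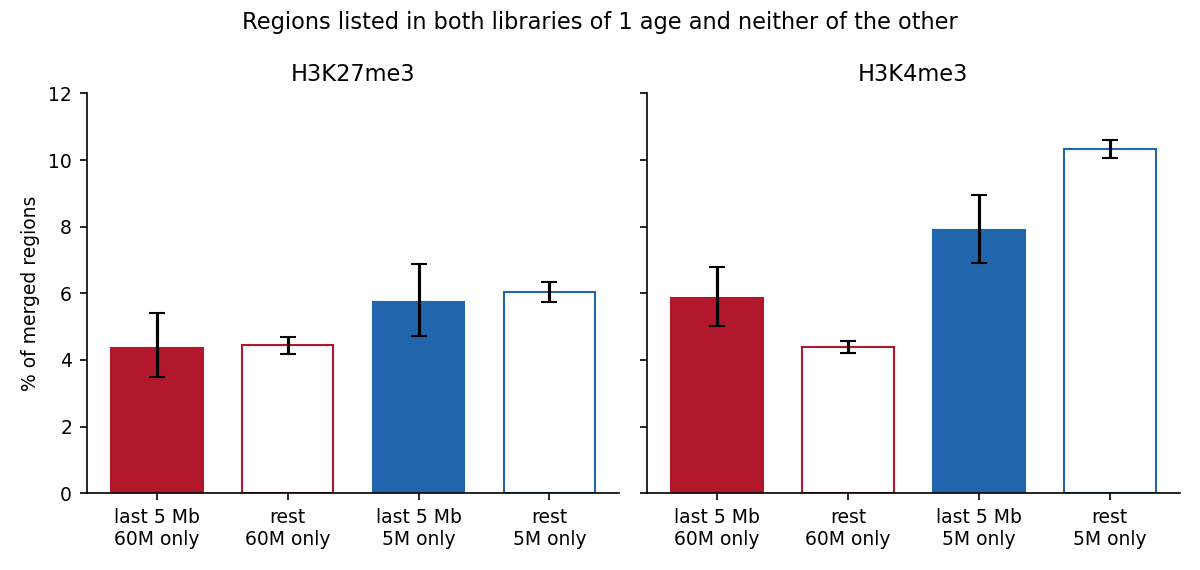
Share of merged regions (vertical axis, %) listed in both libraries of 1 age and in neither of the other, in the last 5 Mb (filled bars) and in the rest of the autosomes (open bars), for H3K27me3 (left) and H3K4me3 (right), with exact binomial 95% intervals. For H3K4me3 the 60M-only share is higher in the windows than in the rest (5.87% against 4.4%) and the 5M-only share is lower (7.89% against 10.3%). The H3K27me3 shares are close to those of the rest. The intervals cover counting error only, not the spread between libraries, and allow no call between ages.

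Agreement between libraries was alike in windows and rest. The share of covered bases that libraries had in common (Jaccard index) was 0.458 for H3K27me3 between the 60M libraries, 0.517 between the 5M libraries and 0.391 to 0.415 across ages. In the rest these values were 0.437, 0.521 and 0.369 to 0.401. For H3K4me3 the windows had 0.840 between the 60M libraries, 0.888 between the 5M libraries and 0.739 to 0.760 across ages. H3K27me3 lists therefore differed more between libraries of 1 age than H3K4me3 lists did across ages.

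H3K4me3 regions listed at 1 age only were weak ones within their own lists. Regions at 60M only had a median percentile of 14.6 in the windows, against 13.6 in the rest, and those at 5M only one of 26.8, against 21.8 in the rest. The 8 strongest at 60M only spanned 1 to 3 kb on 6 chromosomes, at mean percentiles of 38.6 to 50.3. The first of them, chromosome 16 94389000 to 94391999, had signals of 204 and 255 in the 60M libraries and covered 3 kb in each. The 8 strongest listed at 5M only were at percentiles of 63.4 to 69.6, and 5 of them lay on chromosome 15. The first, chromosome 15 100410000 to 100411999, had signals of 323 and 339 in the 5M libraries. The chromosome 15 window held 17 of the 223 H3K4me3 regions listed at 5M only. That is 5.88% of its 289 H3K4me3 regions, against 7.89% over all windows. Percentiles of the ages come from lists of different length and were not compared.

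For H3K27me3 the rule by strength named many regions on chromosome 15, whose window is strong at both ages. That window held 15 of the 80 regions listed at 60M only and 8 of the 105 at 5M only. In shares of its 196 regions these are 7.65% and 4.08%, against 4.36% and 5.73% over all windows. Of the 8 strongest listed at 60M only 4 were there, and of the 8 listed at 5M only 5 were there and the other 3 on chromosome 10. The first at 60M only, chromosome 15 102887000 to 102887999, was a single bin with signals of 124.5 and 92.5. The first at 5M only, chromosome 15 101644000 to 101645999, had signals of 95.6 and 108. A region of 6 kb at chromosome 10 128665000 to 128670999 had signals of 73.8 and 107 at 5M, with 6 kb covered in both 5M libraries and no peak at 60M.

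Shared H3K4me3 regions were more often wider than narrower at 60M, in windows and rest alike. Of the 1884 H3K4me3 regions in all 4 libraries, 152 (8.07%) covered more bases in both 60M libraries than in either 5M library, against 7.44% of the rest. The reverse held for 52 (2.76%), against 2.5% of the rest. Of the 423 H3K27me3 regions in all 4 libraries, 38 (8.98%) were wider at 60M, against 8.28% of the rest, and 68 (16.1%) narrower, against 16.6% of the rest. Both shares are close to those of the rest.

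Fewer window regions had a wide H3K27me3 peak at 60M alone than at 5M alone, as in the rest. Here a single peak had to reach 10 kb, and the covered bases of a region were not summed. Of the 1834 regions 0 had such a peak in the 60M libraries alone, against 0.0287% of the rest. A count of 0 was taken to allow up to 3 regions, or 0.164%, which is not an exact interval. In the 5M libraries alone 7 (0.382%) had a peak of that width, against 0.193% of the rest. A further 3 had one in all 4 libraries. Of the 7, the region on chromosome 5 at 148118000 to 148130999 still covered 11 kb in each 60M library, with widest peaks of 8 and 6 kb. The others covered 3 to 9 kb at 60M. On chromosome 16, the region at 94756000 to 94773999 had its widest peak at 6 and 4 kb in the 60M libraries, and at 11 and 18 kb in those of 5M cells.

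On chromosome 15, the regions at 98520000 to 98529999 and 98722000 to 98732999 each had widest peaks of 7 and 2 kb in 60M cells, against 10 kb in each 5M library. All 10 of these regions, chosen by single-peak width, had an H3K4me3 peak in 4 of 4 libraries. The region on chromosome 9 without H3K4me3, named above for its covered bases, is not among them. Of all 1834 regions, 22.5% overlapped an H3K4me3 peak in at least 1 library, and of the 423 in all 4 H3K27me3 libraries 47.8%. Both shares use a looser rule than 4 of 4 libraries. The share for wide regions of the rest was not computed. For H3K4me3, 10 regions had a single peak of 5 kb or more at 60M only, against 0.346% of the rest, and 4 at 5M only, against 0.133% of the rest. In shares of the 2827 regions these are 0.354% and 0.141%, close to the rest.

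Fewer H3K4me3 regions carried H3K27me3 at 60M than at 5M, as in the rest. Both marks in both libraries of an age were found at 60M on 122 of 2123 H3K4me3 regions (5.75%), against 5.63% of the rest. At 5M they were found on 187 of 2231 (8.38%), against 7.3% of the rest. Of the 1884 H3K4me3 regions in all 4 libraries, 9 (0.478%) had H3K27me3 at 60M only, against 0.352% of the rest. Another 27 (1.43%) had it at 5M only, against 1.26% of the rest. In all 4 libraries 102 (5.41%) had it, against 4.92% of the rest.

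By H3K27me3 library, the share of the 2827 H3K4me3 regions overlapped was 7.004 and 7.36% at 60M and 8.35 and 11.6% at 5M. In the rest it was 6.56 and 6.24% at 60M and 7.28 and 9.83% at 5M. The windows exceeded the rest by 1.09 ± 0.531 percentage points, in 4 of 4 libraries (exact sign-flip permutation p = 0.125, the smallest that 4 libraries allow). No call can be made at that size.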

How the data were processed

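Peaks of H3K27me3 and H3K4me3 in 8 libraries of mouse germline stem cells were analysed. The submitters' processing notes name Bowtie 1.1.2, CASAVA 1.8.4 and the build mm10, and the sources used here do not give a peak caller. One list per library, called per library, was deposited by the authors. Per the file headers, each peak has a maximum immunoprecipitation signal, a pair of −log10 p-values (one for the immunoprecipitate, one relative to the control) and a q-value of at most 0.00097. In the deposited lists the −log10 p relative to the control is at least 3.01 and stops at 15.95, the ceiling named in the text. The scaling of the signal by the authors is not known, so it was ranked within each list. Ranks were compared within a list, and between libraries only as window minus rest. Width is end minus start plus 1 bp. Depth is unknown, a longer list may reflect depth, and a missing peak does not show an absent mark. No list columns were left unmapped.

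Chromosome lengths came from GenomeInfoDb 1.38.1 (R 4.3.3), and positions were not converted. Window length was 5 Mb per chromosome. The rest ran from the first listed start to the window. Of the merged autosomal regions, 3 H3K4me3 and 2 H3K27me3 regions crossed the window edge. Tests were exact two-sided permutations over libraries, with 256 sign flips of 8, 70 arrangements of 4 against 4, 6 of 2 against 2 and 16 sign flips of 4. Adjustment was by Benjamini-Hochberg over 12 tests of density, strength and width. Shares of regions listed at 1 age only have exact Clopper-Pearson 95% intervals. A peak was wide from 10 kb (H3K27me3) or 5 kb (H3K4me3). Named regions were the 8 strongest per mark and age call and, among regions in all 4 libraries, the 5 strongest and 5 widest per mark, and the outermost of each mark. Named chromosomes were the 3 densest and 3 sparsest. Of these sets the text gives the first region and the range. The region on chromosome 9, the 6 kb region on chromosome 10 and the wide regions with their widths were picked out after their values were seen. The members and lists were chosen with earlier results of these data known. The code was tested on simulated lists with known densities. Python 3.11.15, numpy 2.4.6, pandas 2.3.3, scipy 1.17.1 and matplotlib 3.10.9 were used.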

Additional observations from a re-analysis of the deposited data

Results flagged for a closer look

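Results are listed here where effects differed between groups or where peaks lay in data that the comparisons did not use.

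The log2 density ratio of window to rest was higher for H3K27me3 than for H3K4me3 by 0.51 (exact permutation p = 0.0286, adjusted 0.0857). It stood out because the difference between the marks was tested itself.

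The strength difference of window to rest was higher for H3K27me3 than for H3K4me3 by 9.93 percentile points (exact permutation p = 0.0286, adjusted 0.0857), for the same reason. Its sign turned in the last 2 Mb and among peaks at the ceiling.

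The width difference of window to rest for H3K4me3 had opposite signs at the ages, negative in both 60M libraries and positive in both 5M libraries, with a 60M minus 5M value of -0.0491 kb. This was noted for the signs alone, and with an exact permutation p of 0.333 for 2 libraries against 2 no call can be made.

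The X chromosome was outside the comparisons. Its last 5 Mb held a mean of 9 H3K27me3 peaks (11 and 6 at 60M, 8 and 11 at 5M) and of 43.75 H3K4me3 peaks (40 and 40 at 60M, 46 and 49 at 5M). The density ratio to the rest of the X was 1.37 to 2.15 for H3K27me3 and 1.05 to 1.22 for H3K4me3.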

How the results depend on the processing

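Over 19 results and 270 alternatives, 232 kept direction, side of the threshold and, for counts, a size within 1.5 times. The density surplus over 8 libraries and its difference between the marks kept their sign and an unadjusted exact permutation p at the smallest possible value when the window, list length, threshold, rest, position rule, pooling or chromosome 15 (added after the data were seen) was changed. Counts with windows of the last 10 and 2 Mb were 160 and 27 for 60M-only H3K27me3, 192 and 31 for 5M-only H3K27me3, 319 and 37 for 60M-only H3K4me3, 553 and 62 for 5M-only H3K4me3, 247 and 39 with both marks at 60M and 370 and 58 at 5M. These follow window length. Among peaks at the ceiling the counts were 1, 8 and 125 for 60M-only H3K27me3, 5M-only H3K27me3 and 5M-only H3K4me3, and 8 at 60M and 17 at 5M with both marks. Leaving out 1 library each gave 103 to 369 (60M only) and 150 to 380 (5M only) for H3K27me3, 191 to 297 (60M only) and 247 to 323 (5M only) for H3K4me3, and 120 to 180 (60M) and 180 to 285 (5M) with both marks, since fewer libraries must agree. It gave -0.00732 to 4.71 points for the age difference in H3K27me3 strength, negative without 5M library 1.

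At equal list lengths the age difference in H3K27me3 log2 density was 0.0302. The strength difference between the marks was -3.92 points in the last 2 Mb and -1.70 among peaks at the ceiling. The strength difference over 8 libraries was 6.58 in the last 10 Mb, 3.99 as a median over chromosomes and 0.742 at the ceiling, past the threshold in none of the 3. The width difference was 0.000962 kb in the last 10 Mb and -0.749 kb at the ceiling over 8 libraries. Between the marks it was 0.00439 kb in the last 10 Mb, and past the unadjusted threshold at -0.128 kb with equal lists, -0.234 kb in the last 2 Mb and -1.46 kb at the ceiling. The cause was not tested. With the replicate number as a block (replicate block), the age differences kept their values, such as 0.10 for H3K4me3 density and 2.35 points for H3K27me3 strength, with p of 0.5 or 1 by exact permutation. The labels do not say that a number pairs samples, and 2 pairs allow no p under 0.5. Depth is unknown, and 2 libraries an age allow no call between ages.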
